A study of Mus musculus with 4 samples.

Results

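MicroRNA genes of the miR-99/100 and miR-125 families sit beside let-7 genes in the mouse genome. They were chosen by name, as the entries mir-99a, mir-99b, mir-100, mir-125a, mir-125b-1 and mir-125b-2, which are 6 of the 626 microRNA gene entries of the deposited table. The comparison asks how their abundance in mouse embryonic stem cells (ESCs) at day 0 compares with that in embryoid bodies (EBs) at day 8. All samples came from CGR8, a feeder-independent embryonic stem cell line, at passages 5 to 13, with C57BL/6 given as background strain and 129P2/OlaHsd as donor strain. The ESCs were grown on gelatin with leukemia inhibitory factor (LIF) at 100 U/ml in 10% serum. The EBs, which are aggregates in which stem cells differentiate, were made from the same line without LIF in 20% serum, first in hanging drops of 1000 cells (2 days) and then in suspension (6 days). Each group has 2 samples of a single line, and nothing in the labels says that they came from separate cultures.

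MicroRNAs are short RNAs that guide Argonaute proteins to messenger RNAs, mainly through a seed near their 5′ end, and lower the output of those messages. The miR-125 family descends from the same ancestor as lin-4 of Caenorhabditis elegans, which together with let-7 times development in that worm, and one of its known targets in mammals is Lin28. LIN28 proteins in turn hold back the maturation of let-7 precursors in stem cells. The miR-99/100 family has another seed and is known to act on components of mTOR and insulin-like growth factor signalling.

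The mature sequences are shown because the seed defines the families and because copies that share a mature sequence may share reads. They are RefSeq sequences placed on GRCm38.p6, written 5′ to 3′, with the seed (bases 2 to 8) in capitals.
miR-99a-5p: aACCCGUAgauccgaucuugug
miR-100-5p: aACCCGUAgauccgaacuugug
miR-99b-5p: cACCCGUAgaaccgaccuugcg
miR-125a-5p: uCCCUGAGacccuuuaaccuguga
miR-125b-5p: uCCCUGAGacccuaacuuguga
miR-351-5p: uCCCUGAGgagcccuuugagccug
let-7e-5p: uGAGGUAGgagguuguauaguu

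The 6 entries fell into 2 seed groups. The seed ACCCGUA was found in 3 of 1679 mature microRNA names of the RefSeq table, miR-99a-5p, miR-99b-5p and miR-100-5p, and all 3 of their genes were in the deposited table. The seed CCCUGAG was found in 5 names, of which miR-125a-5p, miR-125b-5p and miR-351-5p had entries in the deposited table. The mature miR-99a and miR-100 differ at 1 position, U16A from miR-99a to miR-100, counted from 1 at the 5′ end. From miR-99a to miR-99b there are 4 substitutions, A1C, U11A, U16C and U21C. The mature miR-125a and miR-125b share their first 13 bases and lie 3 edits apart. The genes mir-125b-1 and mir-125b-2 give the same mature miR-125b-5p, so a read of that arm cannot be assigned to either gene.

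The counts were deposited per hairpin and not per arm. The hairpins of 3 members and of let-7e are shown with the 5p arm in capitals, to mark which stretch holds the mature sequence above.
mir-99a hairpin: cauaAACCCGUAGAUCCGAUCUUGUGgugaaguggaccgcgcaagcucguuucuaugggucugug
mir-125a hairpin: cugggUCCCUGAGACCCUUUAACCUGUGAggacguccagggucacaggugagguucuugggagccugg
mir-125b-1 hairpin: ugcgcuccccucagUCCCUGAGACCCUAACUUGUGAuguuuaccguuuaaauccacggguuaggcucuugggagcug
let-7e hairpin: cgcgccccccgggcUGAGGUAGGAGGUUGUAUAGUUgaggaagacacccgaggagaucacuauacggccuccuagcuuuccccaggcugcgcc

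The 6 genes lie in 3 clusters of the same order, a miR-99/100 gene first, a let-7 gene next and a miR-125 gene last, all on the plus strand. Positions are those of the GENCODE M21 annotation of GRCm38, matched by gene name, since no label or header names the build behind the deposited table. On chromosome 17, Mir99b spans 17830188 to 17830257, Mirlet7e starts 164 bases after the start of Mir99b, and Mir125a spans 17830812 to 17830879, so the whole cluster covers 692 bases. Mirlet7e also overlaps Gm25927 on the other strand. Mir99b lies in an intron of Spaca6, a protein-coding gene, and Mir125a overlaps an exon of at least 1 Spaca6 transcript. On chromosome 16, Mir99a spans 77598936 to 77599000 and Mir125b-2 spans 77646273 to 77646343, both in introns of the non-coding gene Mir99ahg, with Mirlet7c-1 lying 721 bases after the start of Mir99a. On chromosome 9, Mir100 spans 41531425 to 41531504 and Mir125b-1 spans 41581926 to 41582002, both in introns of the non-coding gene 3110039I08Rik, and Mirlet7a-2 starts 5291 bases after the start of Mir100. Mir125b-1 also overlaps an exon of Gm28119. The first and last hairpins of these looser clusters start 47337 and 50501 bases apart. Mir99a and Mir100 also overlap genes on the other strand, Gm11146 and Gm48742.

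**Figure D1:**
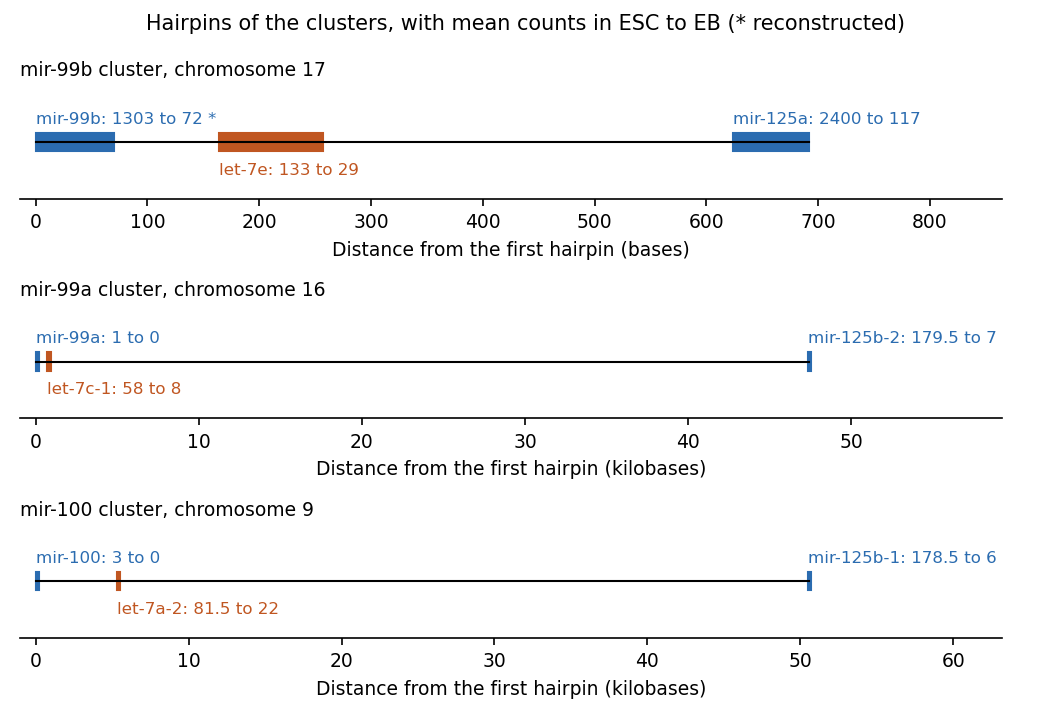
Layout of the 3 clusters as distance from the start of the first hairpin, in bases for the mir-99b cluster and in kilobases for the other two, with members in blue and let-7 genes in orange; very short hairpins are drawn wider than to scale. The text beside each hairpin gives its mean count in ESC and EB, for example 2400 to 117 for mir-125a and 1 to 0 for mir-99a. These counts are not corrected for depth.

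The depth differed between the groups. The total microRNA count was 555950 and 556337 in the ESC samples and 139034 and 139286 in the EB samples, so the EB samples were 4.0 times shallower. The 2 columns of each group differed by less than counting error allows, with a chi-square per degree of freedom of 0.236 over 401 entries for ESC and of 0.285 over 343 entries for EB. The mean of each pair therefore stands for 1 sample, no test between the groups was run, and the 95% intervals below cover counting error only. They compare these libraries, not the conditions, and PCR copies were not told apart from molecules. Fold changes use mean counts after TMM scaling (a trimmed mean of log ratios), which set every log2 fold 0.30 lower than library totals would, and an entry counted as lower or higher when the fold was at least 2. The stem cell label was checked on the miR-290 to miR-295 cluster, whose 6 listed entries took 53.1% of ESC and 52.0% of EB counts. These near-equal shares do not tell the groups apart. Of these 6 entries 4 were at least 2-fold lower and 1, mir-294, at least 2-fold higher in EBs. By library totals 2 of them were lower, and in the normalized signal 3 were. All 5 entries listed as markers of primed pluripotency were at least 2-fold higher. These lists do not by themselves bear out the labels, from which the groups were taken. Of all measured entries, 30.1% were at least 2-fold lower and 33.6% at least 2-fold higher.

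The miR-125 family was lower in the EB library than in the ESC library. All 3 of its entries had enough counts to be measured, and all 3 were at least 2-fold lower in EBs. Of the 366 entries measured in counts, 30.1% were at least 2-fold lower. That share was 26.5% with library totals and 31.1% with DESeq2 size factors. With no filter, 28.4% of the 443 entries above the floor of 3 counts were at least 2-fold lower. The same 3 entries were at least 2-fold lower under each. With 1 sample left out the share was 30.6% to 30.9%, which is no check of stability, since the samples of a group are near copies. The sum of the family came to 2758 counts for ESCs and 130 for EBs, 0.496% (0.478 to 0.515) and 0.0934% (0.0781 to 0.111) of all counts. After scaling, this sum was 6.54-fold lower in EBs (5.49 to 7.86). Counting the miR-125b copies once gave 6.44-fold (5.37 to 7.78). In bulk samples such as these, fewer cells that make a microRNA and less of it per cell cannot be told apart.

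The most abundant member was mir-125a, the only gene of miR-125a. Its counts were 2403 and 2397 in the ESC samples and 110 and 124 in the EB samples. Both ESC values lie far above both EB values, also per library, at 0.432% and 0.431% of ESC counts against 0.0791% and 0.0890% of EB counts. As the samples of a group are near copies, this is no check between replicates. The scaled mean was 6.33-fold lower in EBs (5.25 to 7.68), a log2 fold of -2.66. By mean count mir-125a stood at rank 37 in the ESC library and at rank 98 in the EB library.

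The miR-125b copies were lower in level than mir-125a in both libraries. The entry mir-125b-1 had 179 and 178 counts in the ESC samples and 6 in each EB sample. The entry mir-125b-2 had 179 and 180 counts in the ESC samples and 7 in each EB sample. The copies therefore differed from each other by less than counting error, with a ratio of mir-125b-1 to mir-125b-2 of 0.994 (0.804 to 1.23) in the ESC library and 0.857 (0.238 to 2.98) in the EB library. As they share a mature sequence, they are not taken as separate evidence. Scaled means were 9.17-fold (4.13 to 25.3) and 7.91-fold lower (3.76 to 20.0) in EBs for mir-125b-1 and mir-125b-2. On the log2 scale the folds are -3.20 (-4.66 to -2.05) for the former and -2.98 (-4.32 to -1.91) for the latter. The intervals are wide because the EB library held so few of these reads. In the ESC library mir-125a had 13.4 times the counts of mir-125b-1 (11.5 to 15.7), and in the EB library 19.5 times (8.69 to 54.2), with no correction for unequal capture of different sequences.

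**Figure D2:**
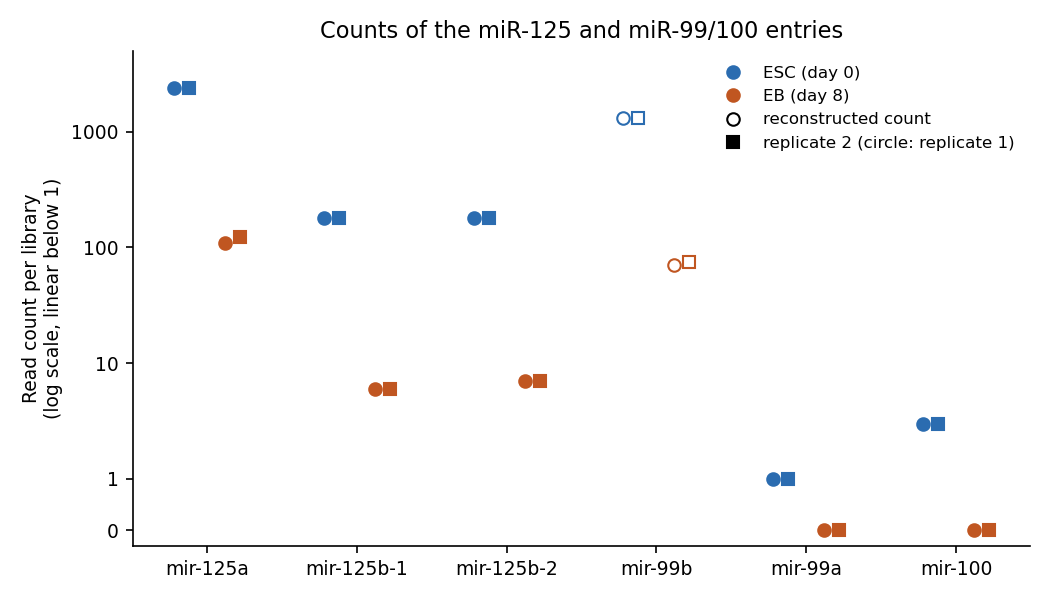
Read count of each member in each of the 4 samples, on a log axis that is linear below 1, with ESC in blue, EB in orange and the reconstructed counts of mir-99b as open symbols. The ESC samples lie above the EB samples for all 6 members, but mir-99a and mir-100 lie at 3 counts or fewer. These counts are not corrected for depth, and the EB samples were 4.0 times shallower, so the gaps are larger than the scaled folds.

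The miR-99/100 family was represented almost wholly by mir-99b. The counts of this entry are not in the table once the displaced rows are put back in register, so its level is first given in the authors' deposited normalized signal. That signal was 752.25 and 757.75 in the ESC samples and 110.0 in each EB sample, a ratio of means of 6.86-fold lower in EBs. The same ratio was 5.32-fold lower for mir-125a, 12.5-fold for mir-125b-1 and 10.5-fold for mir-125b-2. In the normalized signal 4 of the 6 members were thus at least 2-fold lower, and 31.6% of the 367 entries compared on that scale were. These values carry no counting interval.

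Counts for mir-99b could be worked back from the normalized signal. Of 7280 candidate sets of 4 counts, 1 set gave all normalized values when quantile normalization was repeated. That set is 1300 and 1306 counts in the ESC samples and 70 and 74 in the EB samples. Against library totals that leave mir-99b out, these are 0.234% and 0.235% in ESCs and 0.0503% and 0.0531% in EBs. On these reconstructed counts mir-99b was 5.58-fold lower in EBs (4.40 to 7.18), a log2 fold of -2.48 (-2.84 to -2.14). With it, 30.2% of 367 entries were at least 2-fold lower. It stood at rank 64 in the ESC library and at rank 149 in the EB library.

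The other members of the seed group were at the limit of detection. The entry mir-100 had 3 counts in each ESC sample and 0 in each EB sample. The entry mir-99a had 1 count in each ESC sample and 0 in each EB sample. The count floor of 3 corresponds to 21.6 CPM (the count scaled to the library total) in EB replicate 1. The ESC level of mir-100 was 5.39 CPM and that of mir-99a 1.80 CPM, both below that value. A difference was therefore not detectable for either entry at this depth, and no fold is given. Both also fell under the filter on low counts, which asked for about 28.8 CPM, whereas mir-125a, mir-125b-1 and mir-125b-2 passed it in every sample.

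**Figure D3:**
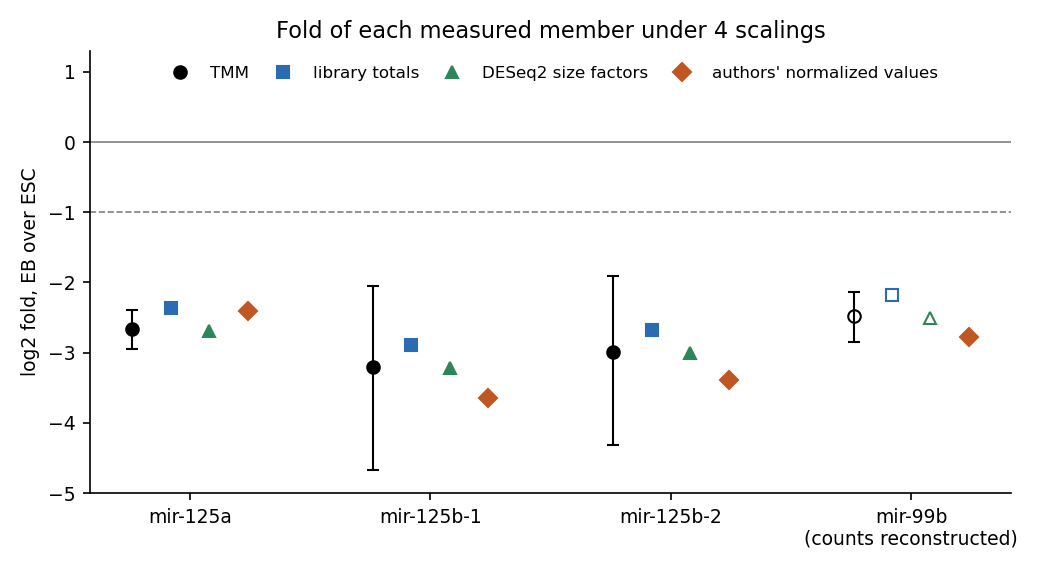
Log2 fold of EB over ESC for the 4 members above the count floor under 4 scalings, with the exact 95% counting interval on the TMM value; open symbols for mir-99b rest on reconstructed counts, and the dashed line marks a 2-fold lower level. Under every scaling shown the 4 members lie below that line, between -3.64 and -2.18.

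Level differed sharply between the members of the looser clusters, and less between those of the compact cluster. In the ESC library the counts of mir-125b-2 were 179.5 on average against 1 for mir-99a of the same cluster, a ratio of 179.5 (31.8 to 7129). The counts of mir-125b-1 were 59.5 times those of mir-100 (20.0 to 291). In the compact cluster on chromosome 17, mir-125a had 1.84 times the reconstructed counts of mir-99b (1.72 to 1.97) in the ESC library and 1.62 times (1.20 to 2.21) in the EB library. Since miR-125b reads can come from either gene, the ratios of the looser clusters are those of the table entries and not of separate transcripts.

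Among the reads of all 6 members, with mir-99b reconstructed, mir-125a took 59.0% (57.5 to 60.6) in ESCs and 57.9% (50.8 to 64.8) in EBs. The share of mir-99b was 32.1% (30.6 to 33.5) and 35.6% (29.0 to 42.7). The genes mir-99b and mir-125a of the chromosome 17 cluster thus made up 91.1% of the members' reads in ESCs and 93.6% in EBs. These shares count both miR-125b copies. Counting the copies once lowers the members' sum from 4065 to 3886 in ESCs and from 202 to 195.5 in EBs, so the shares of mir-99b and mir-125a would be higher. The intervals of each member overlap between the libraries.

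Ratios between members need no scaling between libraries, so they were compared directly. Intervals included 1 for mir-99b over mir-125a, for miR-125b over mir-125a and for mir-99b over miR-125b. The miR-125b copies share a mature sequence and nearly equal counts, so the pairs with either copy repeat 1 measurement, and the pair of copies carries no information on a difference. The ratio of mir-99b to mir-125a in EBs was 1.13 times that in ESCs (0.826 to 1.55). For mir-125b-1 over mir-125a it was 0.688 times (0.244 to 1.57) and for mir-125b-2 over mir-125a 0.798 times (0.309 to 1.73). A difference in fold between members was thus not detectable at this depth, although differences of up to about these bounds could have been missed.

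The let-7 entries of the same clusters differed less between the libraries than the members did. The entry let-7e had 134 and 132 counts in the ESC samples and 29 in each EB sample. Its ratio to mir-125a was 0.0554 in ESCs and 0.248 in EBs, a change of 4.47 times (2.76 to 7.05), although the genes lie within 692 bases of each other. Against the reconstructed mir-99b the change was 3.94 times (2.38 to 6.40). The mature let-7e differs from every member by at least 14 edits, but it lies 1 edit from let-7a and 2 from let-7c and let-7f, and whether reads were shared among let-7 genes was not tested.

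In the looser clusters the same comparison rested on few EB reads. The entry let-7a-2 had 81 and 82 counts in the ESC samples and 23 and 21 in the EB samples, and its ratio to mir-125b-1 was 7.94 times higher in EBs (2.98 to 24.9). The entry let-7c-1 had 54 and 62 counts in the ESC samples and 4 and 12 in the EB samples. Its ratio to mir-125b-2 was 3.53 times higher in EBs (1.07 to 12.0). That last change was 1.77 times (0.366 to 7.25) without EB replicate 2 and 5.28 times (1.82 to 16.6) without EB replicate 1, and without ESC replicate 1 it was 3.30 times with an interval that reached down to no change. Both let-7a-2 and let-7c-1 share their mature sequence with a gene outside the clusters, let-7a-1 and let-7c-2. In the EB samples let-7a-1 had 19 and 20 counts and let-7c-2 had 8 and 4. Whether reads were shared between these copies was not tested, so both ratios are those of the table entries and not of separate genes.

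**Figure D4:**
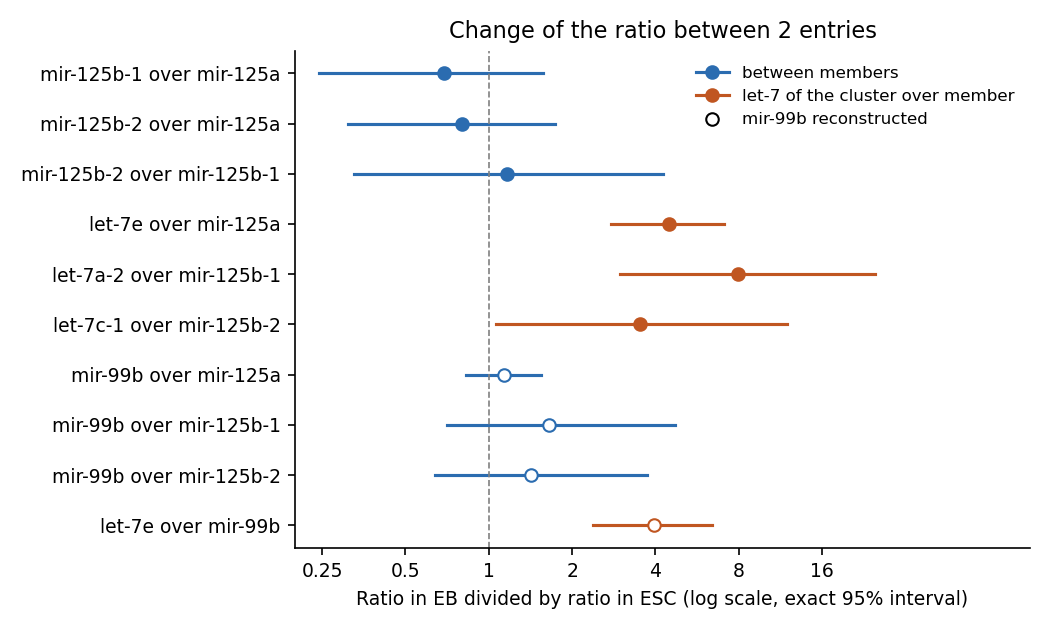
Ratio of 2 entries in EBs divided by the same ratio in ESCs, on a log axis with exact 95% intervals, for pairs of members (blue) and for the let-7 of a cluster over its member (orange); open circles use reconstructed mir-99b counts. The pairs of members, of which those with either miR-125b copy repeat 1 measurement, have intervals that span 1. The 4 let-7 pairs lie at 3.53 to 7.94 with intervals above 1. Without EB replicate 2, let-7c-1 over mir-125b-2 was 1.77 (0.366 to 7.25), an interval that spans 1.

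The let-7 family was also counted as a list. Of its 12 entries 10 were measured, 2 of them were at least 2-fold lower in EBs (let-7c-1 and let-7c-2) and 0 at least 2-fold higher, where the shares of all measured entries were 30.1% and 33.6%. The median log2 fold of the 10 was -0.43, beside 0.05 for all measured entries. The count of 2 depended on the scaling. It was 1 with library totals, where let-7c-1 had a log2 fold of -0.86, and 4 with DESeq2 size factors or with no filter, where let-7d and let-7g were added. In the normalized signal 5 of the 10 were at least 2-fold lower, with a median of -0.93 beside -0.18 for all entries compared. The log2 fold of let-7e was -0.50 with TMM and -0.20 with library totals, and it was -1.08 in the normalized signal, where let-7e counted as lower. For let-7a-2 the log2 fold was -0.19 with TMM and 0.11 with library totals, so its direction turned with the scaling.

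Among all measured entries the members lay in the lower tail of the fold distribution. Ranked from the lowest log2 fold among 367 entries, with mir-99b reconstructed, mir-125b-1 was at place 8, mir-125b-2 at 13, mir-125a at 27 and mir-99b at 30. The entries most like mir-125a, taken as the nearest log2 folds among 50 entries with a mean CPM within 2-fold of its own, were mir-124-2, mir-124-1 and mir-124-3. These copies of the neuron-enriched miR-124 had log2 folds of -2.67, -2.68 and -2.75, at distances of 0.0042, 0.017 and 0.093 from mir-125a. As copies they may share reads, so they are not taken as separate cases. With only 2 libraries in effect, likeness here means a like fold and a like level and no more.

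**Figure D5:**
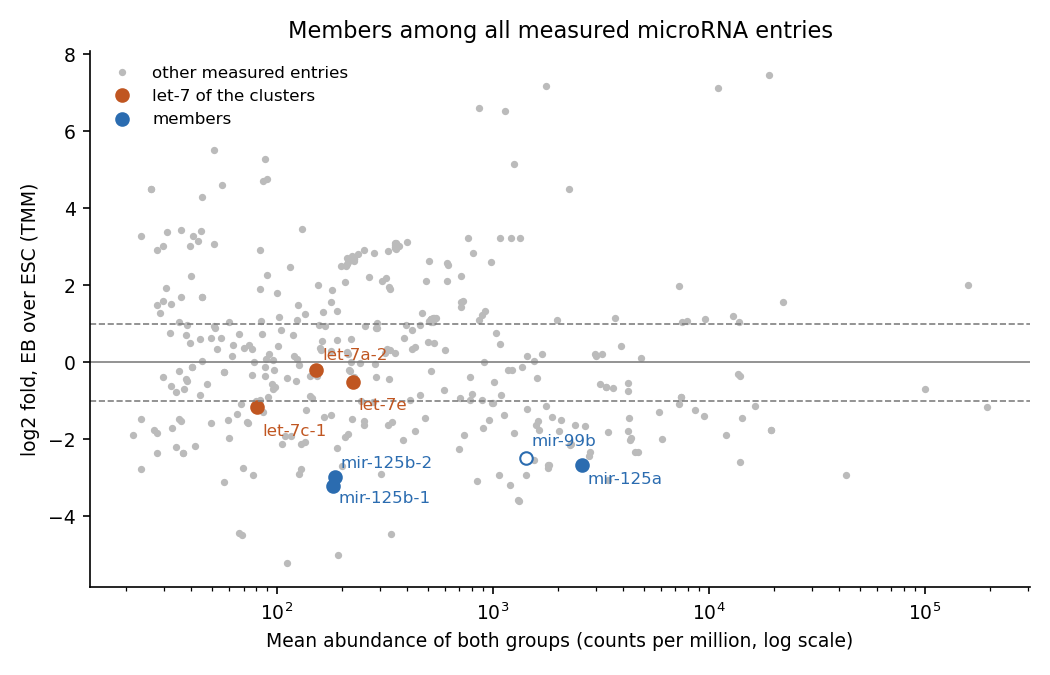
Log2 fold of EB over ESC with TMM scaling against mean abundance in CPM (log axis) for all measured entries, with members in blue (mir-99b open, reconstructed) and the let-7 genes of the clusters in orange; dashed lines mark 2-fold. The members lie between -3.20 and -2.48, and let-7e and let-7a-2 lie between the dashed lines.

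The remaining entry with a miR-125 seed was lower in EBs too. The gene mir-351, which lies on chromosome X in another cluster, had 119 and 121 counts in the ESC samples and 5 in each EB sample, 7.40-fold lower after scaling (3.08 to 23.2). Its ratio to mir-125a in EBs was 0.855 times that in ESCs (0.267 to 2.11). The Hox-cluster genes of the miR-10 family carry a seed that differs from that of miR-99/100, though mature miR-10a lies only 3 edits from miR-100. The entry mir-10b had 74 and 66 counts in the ESC samples and 1 in each EB sample, a scaled ratio of 21.6-fold lower (3.75 to 865). The entry mir-10a had 19 and 27 counts in the ESC samples and 1 and 3 in the EB samples, a ratio of 3.55-fold lower with an interval that included no difference (0.876 to 31.0).

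The mesenchymal and neural marker lists were lower in EBs, as the members were, and the muscle list had too few counts to compare. The 5 mesenchymal and fibroblast markers summed to 2430 to 2448 CPM in the ESC samples and 432 to 452 CPM in the EB samples, and 3 of the 4 measured were at least 2-fold lower. The 6 neural markers (copies of miR-124 and miR-9) summed to 9588 to 9594 CPM in ESCs and 1881 to 1884 CPM in EBs. All 6 were at least 2-fold lower, where 30.1% of all measured entries were. The copies of miR-124 had near-equal mean ESC counts of 1681.5, 1687 and 1684.5. The sum may thus hold the same reads more than once, which was not tested, and the 6 entries are not separate evidence. No mesenchymal or neural marker was at 0 in all samples. Of 5 muscle markers 2 were in the table and 0 were measured, with mir-1a-2 at 0 in every sample. Their summed level was 0 in ESCs and 7.18 to 7.19 CPM in EBs, which is 1 count. The part of these cell types in the result was not tested.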

How the data were processed

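Small RNA of the 4 samples was sequenced on an Ion Torrent PGM, per the labels' protocols, after PCR and with no molecular identifiers described. No label or header names an aligner, counter or build. The authors deposited whole-number counts per microRNA gene without normalization, per the file headers, and a normalized signal per sample, whose 4 columns held the same set of values, as quantile normalization gives. A further 4 log2 columns were not used.

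The mir-664 row had blank counts, and the 169 rows after it held the counts of the row above. Moving these counts up by 1 row raised their rank correlation with the normalized signal from 0.355 to 0.541 up to 0.9948 to 0.9985. This left mir-99b without counts, so totals and scaling leave it out.

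Groups and replicates came from the labels. Entries were kept by filterByExpr (minimum count 10, minimum total 15) and scaled by TMM in edgeR 4.0.16 (R 4.3.3). Alternatives were library totals, DESeq2 1.42.0 size factors, the normalized signal, no filter and leaving out each sample. No test was run, because the columns of a group differed by less than counting error. Intervals at 95% are exact conditional binomial for folds, Clopper-Pearson for shares and exact conditional for ratios of ratios, whose mean counts were rounded. The floor was 3 counts. A median, rank or call uses 3 counts where 1 group was at 0. The code for intervals and folds was run on simulated counts that held counting error alone. That cannot show whether the intervals hold for these data. Python 3.11.15, scipy 1.17.1, numpy 2.4.6, pandas 2.3.3 and matplotlib 3.10.9 were used.

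Named entries were the 6 members, the let-7 genes of their clusters, the let-7 and miR-10 families, entries of the same seed, and the 3 entries nearest to mir-125a in log2 fold at a like level. Members, lists and tests were chosen with earlier results of these data known.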

Additional observations from a re-analysis of the deposited data

How the results depend on the processing

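With library totals in place of TMM, the log2 fold of mir-125a was -2.36 and that of the miR-125 sum -2.41, both beyond the counting interval of the main value. The log2 fold of mir-99b was -2.78 in the normalized signal and -2.48 with reconstructed counts. Over all alternatives run, mir-125a lay between -2.77 and -2.36, mir-125b-1 between -3.64 and -2.90 and mir-125b-2 between -3.39 and -2.68. With each sample left out in turn, the log2 fold of mir-125a was -2.68 to -2.61, though the samples of a group are near copies. List counts under other scalings were added after seeing the data. The count of members at least 2-fold lower was 3 in counts under each scaling and filter, and 4 where mir-99b entered by its normalized signal or, chosen after seeing the data, by reconstructed counts. The miR-99/100 sum had no fold without mir-99b (4 counts against 0) and a log2 fold of -2.48 with its reconstructed counts. Ratios between the miR-125 entries and let-7 were the same without the row move, as these entries precede mir-664. No paired analysis was possible because each group counted as 1 sample and no test was run. Depth limits the miR-125b folds, at 6 and 7 EB counts, and mir-99a and mir-100.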

Other observations

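The displaced rows change what the deposited count cells say about this family. In the row named mir-99a the count cells as deposited hold the values of mir-98, which are 10 and 12 in the ESC samples and 0 in the EB samples. Put back in register, mir-99a had 1 count in each ESC sample. The row named mir-99b holds the counts of mir-99a as deposited, although its normalized signal is 755 in ESCs.

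A ratio of raw counts, with no correction for depth, would put mir-125a 20.5-fold, mir-125b-1 29.8-fold and mir-125b-2 25.6-fold lower in EBs, against 6.33-fold, 9.17-fold and 7.91-fold after TMM scaling.

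The normalized signal separates entries with equal counts. In the EB samples mir-100 and mir-99a both had 0 counts, but mir-100 was listed at 0 and mir-99a at 0.5. Of 134 entries at 0 counts in EB replicate 1, 73 were listed above 0. A ratio of normalized signals for mir-99a therefore rests on the order of tied entries and on 1 ESC count.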
